A study of Mus musculus with 4 samples.

Results

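A set of 10 transcription regulators of late male meiosis and early spermatid life was followed across mouse spermatogenic cells. They were chosen by name and known role, not by a threshold on the measured values, and all 10 are among the 24426 genes of the deposited expression table. Mybl1 (A-MYB), Tcfl5, Rfx2, Rfx4, Crem and Sox30 encode DNA-binding factors. Brdt encodes a reader of acetylated histones. Tbpl1, Taf7l and Gtf2a1l encode germ cell relatives of the general transcription factors TBP, TAF7 and the large subunit of TFIIA. RNA was measured in 4 libraries from C57BL/6 male mice, 1 library per stage, with no treatment named. Testes of 30 mice aged 7 days gave spermatogonia (SG). Spermatocytes from testes of 5 mice aged 17 days were pachytene (PaSC), leptotene/zygotene (L/ZSC) or preleptotene (PlpSC). Cells were separated by size in a gravity gradient after Sertoli cells had been left to attach, so each library is a pool of animals and a fraction enriched by size. Values are FPKM, fragments scaled for transcript length and library size.

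Germ cells entering meiosis shut down the spermatogonial programme, and by pachytene they start a second one that carries on into the haploid spermatid. A-MYB is known in the mouse as a main activator of pachytene genes, piRNA pathway genes among them. RFX2 and CREM are known to act later, on genes of the flagellum and on spermatid genes such as the protamines. Several of these factors replace a relative that is used in most other cells, and these replacements are the reason the members are set beside their relatives here. X-linked genes are silenced in pachytene cells when the sex chromosomes condense, which bears on Taf7l, the X-linked member.

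The labels of the libraries were checked against cell type markers. The summed FPKM of 9 pachytene markers, Ldhc, Hspa2 and Pgk2 among them, was 5559 under SG, 690 under PlpSC, 8505 under L/ZSC and 8921 under PaSC. Testes of the age given for SG normally hold no pachytene cells, so the markers of this library go against its label. Sertoli cell markers were highest there for 7 of 8 genes, beside 16.3% of all genes at 0.5 FPKM or more in any library. The study's methods state that fractions were checked by cell size, morphology, and marker genes and proteins. Its results report that most cells of each fraction were of the stage named. Of 9 markers of undifferentiated spermatogonia, 7 were highest under PlpSC and none under SG. Of 6 markers of differentiating spermatogonia, 5 were highest under PlpSC, beside 41.3% of all genes at 0.5 FPKM or more in any library. By sum, however, PlpSC was close to SG for the 9 and lowest for the 6. The 9 summed to 179 FPKM under SG, 181 under PlpSC, 128 under L/ZSC and 63.8 under PaSC. The 6 summed to 290, 218, 383 and 472 in that order, of which Dmrtb1 alone held 219, 38.1, 356 and 461. The order of this sum is thus that of Dmrtb1, and the other 5 were each highest under PlpSC. Stra8, counted with the 6, is the paper's marker of meiosis initiation. No marker list for preleptotene or leptotene/zygotene cells was used. For 653 lncRNAs at 0.5 FPKM or more in both, the SG column was a constant multiple of the column headed PaSC in the lncRNA list published with the study, within 1% for all 653. The columns headed PlpSC were the same for 642 of 642 lncRNAs, while 10 of 559 and 5 of 577 lay within 1% of a constant multiple for L/ZSC and PaSC. The deposited columns are labelled type A spermatogonia, prelep, lep/zygo and Pach, and are here called SG, PlpSC, L/ZSC and PaSC. A stage name below thus stands for the column so labelled, and no order of development is read from the labels. Where 4 values follow each other without names, their order is SG, PlpSC, L/ZSC and PaSC.

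Other cells differed between the libraries as well. Macrophage markers (6 genes) summed to 334 FPKM under PlpSC and to between 8.79 and 21.0 elsewhere, fibroblast markers (4 genes) to 495 and to between 4.47 and 24.5, and myoid markers (4 genes) to 118 and to between 10.2 and 22.5. Sertoli cell markers (8 genes) ran from 117 FPKM under PaSC to 1567 under SG. Spermatid markers (9 genes) summed to 12218 FPKM under PaSC and 108 under L/ZSC, and Leydig cell markers (5 genes) to 2129 and 49.1. All 9 spermatid markers and 4 of the 5 Leydig cell markers were highest under PaSC, beside 27.4% of all expressed genes. The label of PaSC, pachytene cells of mice aged 17 days, names neither cell type, so this column need not describe pachytene cells alone. Endothelial markers (4 genes) stayed between 3.95 and 18.8. Smcp, a spermatid marker listed at 0 under PlpSC, was the only one of all these markers at 0 in any library. In bulk samples fewer cells of a type and less RNA per cell cannot be told apart. The table gives no read counts, so the depth behind each value is unknown, and 1 library per stage leaves no replicate check and no test.

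**Figure D1:**
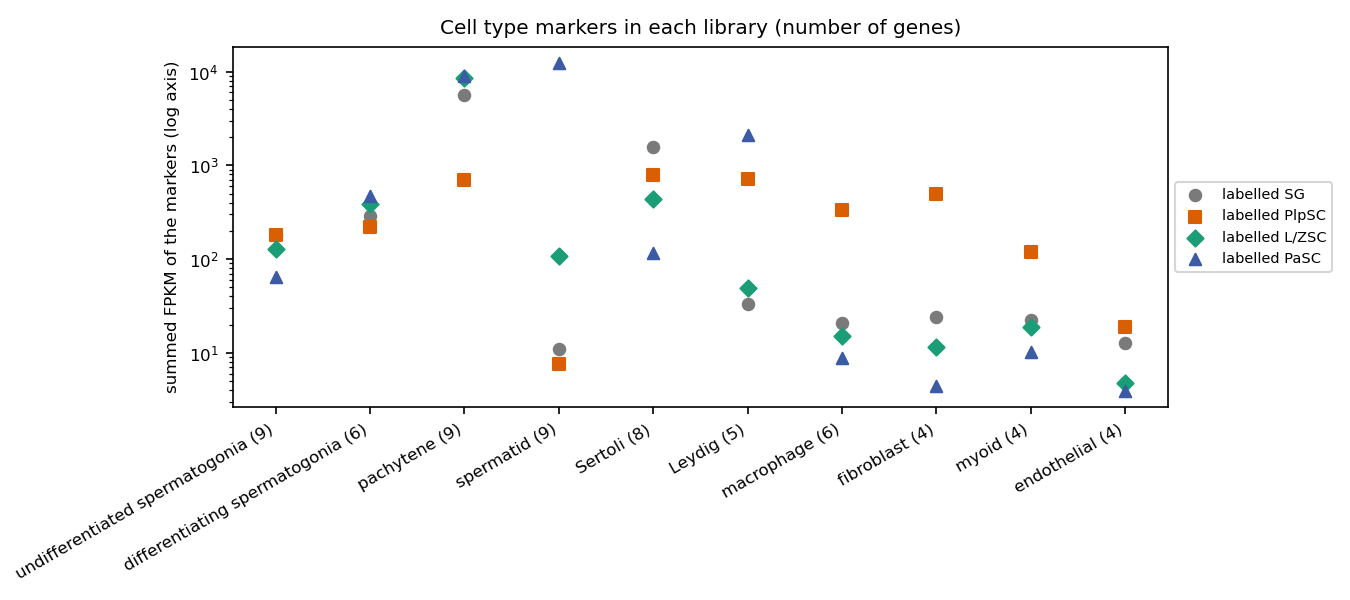
Summed FPKM (log axis) of each marker list in the 4 labelled libraries, 1 point per library, with the number of genes in brackets. Pachytene markers are lowest under PlpSC at 690, macrophage and fibroblast markers are highest there, and spermatid markers reach 12218 under PaSC.

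The members with a start site in the RefSeq promoter table were read for letters that MYB, RFX, CREB and E-box proteins are known to favour. Entries were found for 8 members, with 9 start sites, and none was matched for Mybl1 and Crem. Each window was the 250 bases before the start, searched on both strands for 6 motifs. AACNGTT is a MYB motif and AACNG is its core. TGACGTCA is the cyclic AMP response element (CRE) and TGACG is a part of it. GTTGCC is part of an RFX site, and CACGTG is an E-box. Every full MYB motif holds its core and every CRE its part. The 4 windows below are shown because Rfx2 alone held the full MYB motif, Tcfl5 had the most MYB cores, Gtf2a1l had the widest range of values and Taf7l was the exception among the members. They come from RefSeq on GRCm38.p6, the assembly that mm10 names, and capitals mark every match to these motifs, overlapping ones joined.
Rfx2, chr17:56831009-56831258, minus strand: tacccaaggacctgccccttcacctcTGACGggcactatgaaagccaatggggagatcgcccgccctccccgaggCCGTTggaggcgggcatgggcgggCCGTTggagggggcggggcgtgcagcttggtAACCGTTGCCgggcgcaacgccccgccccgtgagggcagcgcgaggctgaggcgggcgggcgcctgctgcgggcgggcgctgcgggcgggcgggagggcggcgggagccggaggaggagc
Tcfl5, chr2:180642692-180642941, minus strand: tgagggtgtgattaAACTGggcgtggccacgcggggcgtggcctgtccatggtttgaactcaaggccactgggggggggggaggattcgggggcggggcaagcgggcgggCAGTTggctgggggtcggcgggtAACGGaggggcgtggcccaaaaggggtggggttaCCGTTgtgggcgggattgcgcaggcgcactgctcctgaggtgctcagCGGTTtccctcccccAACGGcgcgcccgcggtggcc
Gtf2a1l, chr17:88668410-88668659, plus strand: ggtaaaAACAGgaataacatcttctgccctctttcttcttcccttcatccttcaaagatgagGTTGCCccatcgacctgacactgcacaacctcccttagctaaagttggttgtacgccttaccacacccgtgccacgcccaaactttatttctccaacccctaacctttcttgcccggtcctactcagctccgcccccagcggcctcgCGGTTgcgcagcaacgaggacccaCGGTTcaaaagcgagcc
Taf7l, chrX:134476491-134476740, minus strand: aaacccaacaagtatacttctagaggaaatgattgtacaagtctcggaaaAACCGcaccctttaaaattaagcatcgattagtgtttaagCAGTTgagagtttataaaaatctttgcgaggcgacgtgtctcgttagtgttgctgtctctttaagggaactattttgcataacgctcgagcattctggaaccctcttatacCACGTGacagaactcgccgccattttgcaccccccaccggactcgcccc

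In the Rfx2 window the full MYB motif lay 120 to 114 bases before the start, and an RFX match that overlaps its end lay 116 to 111 bases before it. The MYB motif stood in 3.80% of all 32851 promoter windows of this length. The RFX letters stood in 10.4% of them, and among the members they were found in Rfx2 and in Gtf2a1l, there 188 to 183 bases before the start. The E-box, present in 6.02% of windows, was found in Taf7l at 49 to 44 bases and in Brdt at 78 to 73 bases. The full CRE (1.55% of windows) was in no member window, and its part (17.8%) only in that of Rfx2. The MYB core was in all 9 member windows and in 74.2% of all windows, so its presence sets no member apart. A match is a description of the letters and not of a bound site.

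Of the 10 members, 9 had their lowest value under PlpSC and Taf7l had its highest there. Among the 16652 genes that reached 0.5 FPKM in any library, which include all 10 members, 33.8% were lowest under PlpSC. The summed pachytene markers were also lowest there, at 690 FPKM, and the macrophage, fibroblast and myoid markers highest, and the part of either in the members' values was not tested. A gene was called higher or lower where the plain ratio of FPKM was over 1.5. From SG to PlpSC 8 members were lower, against 30.9% of all genes, and 1 was higher, against 30.1%. From PlpSC to L/ZSC 8 were higher (30.7% of all genes) and 1 was lower (45.4%). The 8 members lower at the first step were the 8 higher at the second, a course taken by 25.1% of all genes, while Taf7l took the reverse course with 28.5% of genes. Leaving out the SG column could not change the count of 9, because a lowest value stays lowest among fewer columns. At a ratio over 2, 1 member was higher (20.5% of all genes) and 6 were lower (21.8%) at the first step, and 7 were higher (24.4%) and 1 was lower (37.2%) at the second. None passed that ratio at the last step, where 19.6% of all genes were higher and 10.9% lower.

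**Figure D2:**
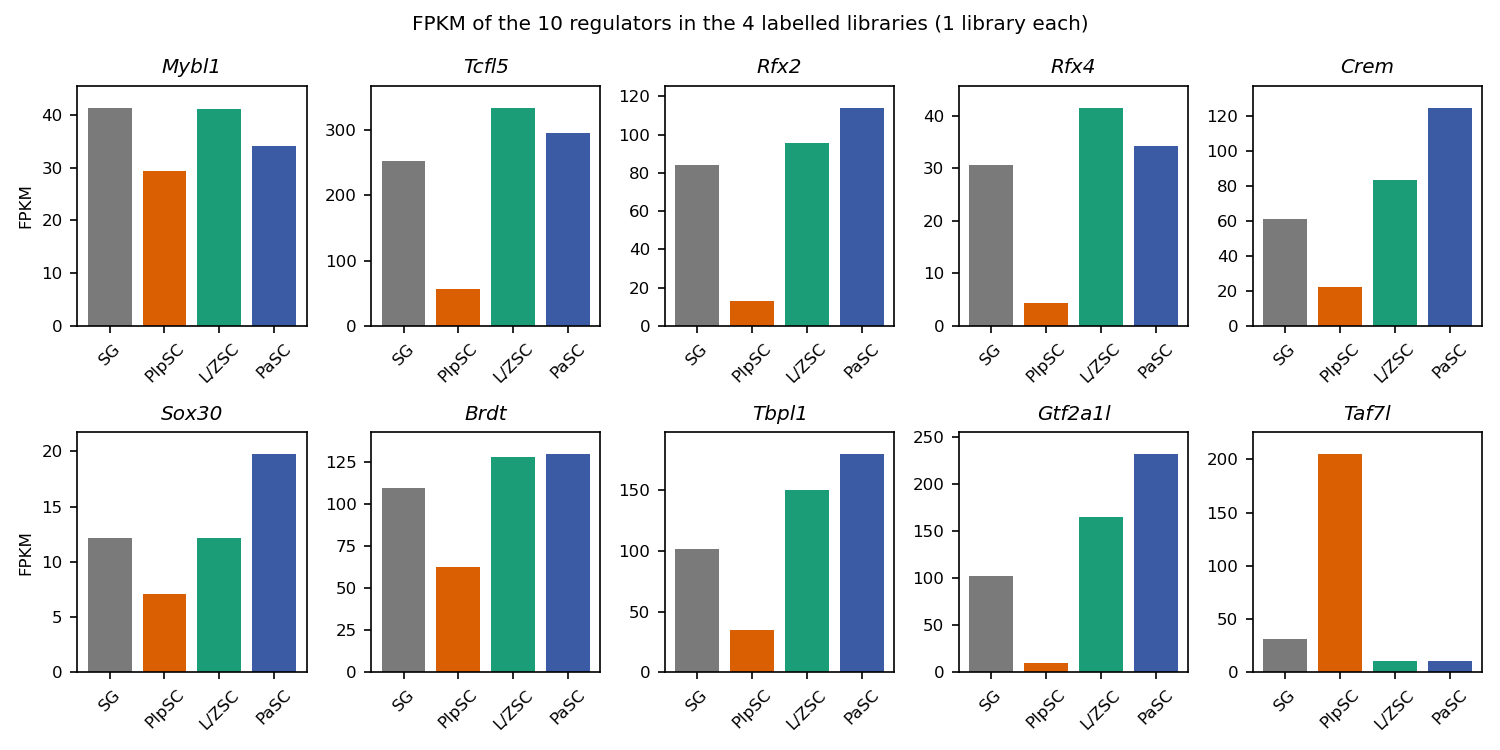
FPKM of each regulator (linear axes from 0, scaled per gene) in the 4 labelled libraries, 1 bar per library, with no error bars because there was 1 library per stage. The bar of PlpSC is the shortest for 9 genes and the tallest for Taf7l, where it reaches 205.

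Mybl1, the A-MYB gene, varied least of all the members. It was at 41.4 FPKM under SG, 29.4 under PlpSC, 41.1 under L/ZSC and 34.2 under PaSC. The highest value was 1.41 times the lowest, under the 1.5 that a call required at every step. With all libraries brought to one sum of FPKM, however, its difference from SG to PlpSC passed that limit, at -1.80 on the log2(FPKM + 0.5) scale against -0.49 in the deposited values. It was -0.70 when the 10 highest genes of each library were left out of that sum. From PlpSC to L/ZSC the single sum gave 1.65 against 0.48, again past the limit. Its relative Mybl2, a cell cycle MYB factor, stood at 7.18 FPKM under PlpSC and between 3.25 and 4.86 elsewhere, so Mybl1 exceeded it from 4.09 times under PlpSC to 12.7 times under L/ZSC. Myb, the blood cell member of the family, stayed under 0.5 FPKM in every library.

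Tcfl5, a basic helix-loop-helix factor of spermatocytes, was the most abundant member in every library except PlpSC. Its values were 252 FPKM under SG, 56.0 under PlpSC, 334 under L/ZSC and 295 under PaSC. At its highest it lay above 97.9% of expressed genes, and under PlpSC it still lay above 90.5%. The L/ZSC value was 5.97 times that under PlpSC, and the values of L/ZSC and PaSC were within 1.13 times of each other. The gene overlaps Col9a3 on the opposite strand by 234 bases, and that cartilage collagen gene reached no more than 5.26 FPKM. Tcf3 and Tcf12, general helix-loop-helix factors, were highest where Tcfl5 was lowest, with 33.2 and 25.7 FPKM under PlpSC and 2.45 and 2.88 under PaSC.

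The RFX factors Rfx2 and Rfx4 had similar profiles at different levels. Rfx2 was at 84.3 FPKM under SG, 13.1 under PlpSC, 95.7 under L/ZSC and 114 under PaSC. Rfx4, which is also known from the ciliated lining of the brain, was at 30.6, 4.34, 41.5 and 34.3 FPKM in the same libraries. From PlpSC to L/ZSC they were higher by 7.29 and 9.55 times, and Rfx2 stayed between 2.31 and 3.32 times Rfx4 in all 4 libraries. Rfx4 has annotated starts far apart along the gene, and the table holds 1 value for all of them. Rfx1, a widely used relative, took another course, with 3.37, 4.90, 2.89 and 30.4 FPKM, a 10.5-fold higher level under PaSC than under L/ZSC. Rfx3, a regulator of motile cilia, was between 1.13 and 3.54 FPKM, and Rfx5, Rfxank and Rfxap, which act together at MHC class II genes, were between 3.23 and 26.4 FPKM.

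Crem encodes a factor of the CREB family whose activator forms act in spermatids, and its mRNA also gives repressor forms. It was at 61.3 FPKM under SG, 22.0 under PlpSC, 83.6 under L/ZSC and 125 under PaSC. The PaSC value was 2.03 times that under SG and 1.49 times that under L/ZSC, just under the limit for a call at the last step. The annotation lists 39 transcripts of Crem, 32 of them protein-coding, and the single value per library cannot separate activator from repressor forms. Gm6225, a transcript from the opposite strand that overlaps 1069 bases of Crem, had 6.01 FPKM at most. Among the related factors, Creb1 was between 3.84 and 7.95 FPKM and Atf1 between 19.6 and 34.6, each highest under PlpSC. Crem was 2.77 times Creb1 under PlpSC and 32.5 times under PaSC.

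Sox30, an HMG-box factor needed for spermatid development in mice, was the lowest member under SG and the only one called higher from L/ZSC to PaSC. It was at 12.1 FPKM under SG, 7.10 under PlpSC, 12.2 under L/ZSC and 19.7 under PaSC. The last of these was 1.62 times that under L/ZSC, at a step where 24.9% of all genes were higher and 24.6% lower. The 9 spermatid markers were all higher at that step too, by a median of 4.92 on the log2(FPKM + 0.5) scale, and their part in the value of Sox30 was not tested.

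Brdt, the testis member of the BET family of bromodomain proteins, was high in every library. Its values were 109 FPKM under SG, 62.8 under PlpSC, 128 under L/ZSC and 129 under PaSC, above 91.7% to 94.0% of expressed genes. Under PlpSC it was the most abundant member after Taf7l. Brd2, used in most cells, differed little, with 89.7 FPKM under PlpSC and between 110.5 and 111.5 in the others. Brdt was 0.700 times Brd2 under PlpSC and 1.16 times under PaSC. Brd3, another widely used relative, was lower, and Brdt was between 4.97 and 6.13 times Brd3 in all libraries.

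Among the variants of the general machinery, Gtf2a1l had the widest range of all members. This gene, also known as ALF, was at 102 FPKM under SG, 10.3 under PlpSC, 165 under L/ZSC and 232 under PaSC, a range of 22.5 times. Its counterpart Gtf2a1, the TFIIA subunit of other cells, was at 35.1, 22.7, 29.5 and 20.4 FPKM. Under PlpSC Gtf2a1 was 2.20 times Gtf2a1l, and in the other libraries Gtf2a1l exceeded Gtf2a1 by 2.92 times under SG, 5.59 times under L/ZSC and 11.4 times under PaSC. Gtf2a2, the small TFIIA subunit that both can pair with, was between 139 and 202 FPKM. The neighbouring gene Ston1, which can be read through into Gtf2a1l, was at 4.62 FPKM under PaSC and under 0.85 FPKM elsewhere.

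Tbpl1 encodes TRF2, a TBP-like factor without which mouse spermatids do not mature. It was at 102 FPKM under SG, 35.2 under PlpSC, 149 under L/ZSC and 179 under PaSC. Tbp, the founding member, followed the same order of libraries from PlpSC upwards, with 66.1, 36.2, 89.4 and 95.5 FPKM. The ratio of Tbpl1 to Tbp therefore stayed between 0.973 under PlpSC and 1.87 under PaSC, a narrower band than for Gtf2a1l. Tbpl2, the oocyte relative, was listed at 0 in all libraries. Tbpl1 and Slc2a12, a sugar transporter gene on the opposite strand, share 407 bases, and Slc2a12 was at 4.18 FPKM or less.

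Taf7l, the germ cell relative of the TFIID subunit gene Taf7, ran against the rest. It was at 31.5 FPKM under SG, 205 under PlpSC, 10.8 under L/ZSC and 10.5 under PaSC. The PlpSC value was 6.50 times that under SG and 18.9 times that under L/ZSC. With all libraries brought to one sum of FPKM it was at 100.2 under PlpSC and 12.2 under L/ZSC, a smaller ratio. Taf7 itself was at 32.7, 37.6, 22.1 and 16.6 FPKM, so Taf7l was 5.44 times Taf7 under PlpSC and 0.491 times Taf7 under L/ZSC. It was highest under PlpSC with each of the 3 scalings. Another relative, listed as 4933416C03Rik and named Taf7l2 by RefSeq, lies on chromosome 10 and was lowest under PlpSC. It was at 111 FPKM under SG, 38.7 under PlpSC, 149.6 under L/ZSC and 139.8 under PaSC. Taf7l was 5.28 times 4933416C03Rik under PlpSC, and 4933416C03Rik was 13.8 and 13.4 times Taf7l under L/ZSC and PaSC. How the reads of these related sequences were shared out is not given in the sources used here, so the split between them is uncertain.

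**Figure D3:**
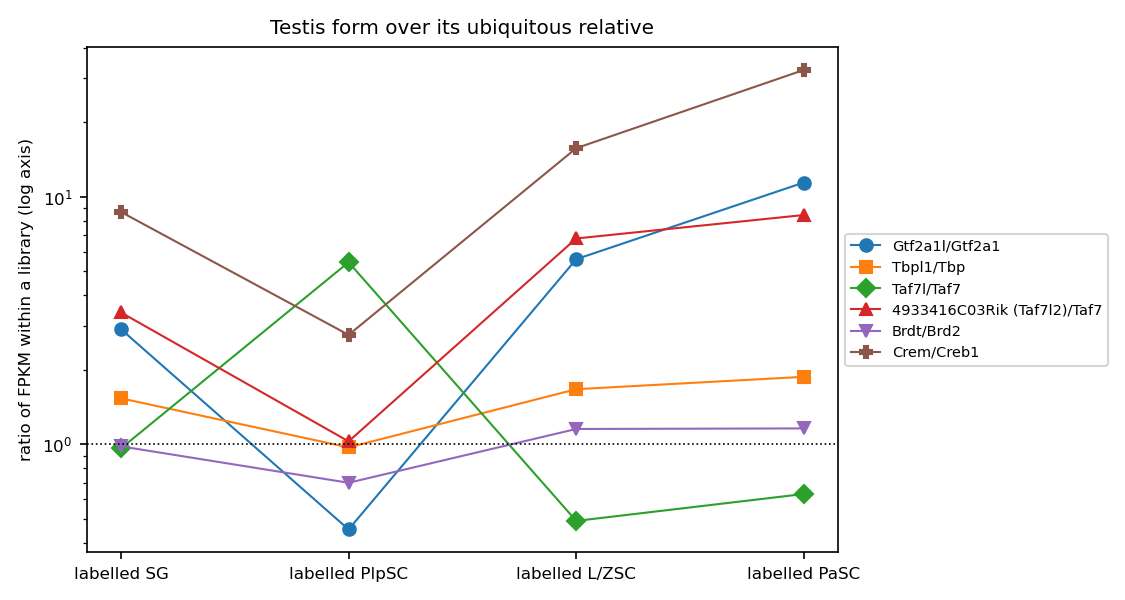
Ratio of FPKM within each labelled library (log axis) of 6 testis forms to a ubiquitous relative, with lines joining the 4 values of a pair and a dotted line at equal levels. The ratio Taf7l/Taf7 peaks under PlpSC at 5.44, where the other 5 have their minimum, and Gtf2a1l/Gtf2a1 spans 0.454 to 11.4.

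Taf7l lies on the X chromosome, so it was set beside the other X-linked genes. Of 724 expressed X-linked genes, 459 (63.4%) were highest under PlpSC, against 41.3% of all expressed genes. From PlpSC to L/ZSC the X-linked median was -1.73 on the log2(FPKM + 0.5) scale and the autosomal median -0.23, and Taf7l differed by -4.18, with 11 X-linked genes further down. From SG to PlpSC the X-linked median was 0.76, the autosomal median -0.01, and Taf7l differed by 2.68, with 28 X-linked genes further up. Bringing all libraries to one sum moved the median of all genes by -1.03 at that step, so the sign of the X-linked median is read only against the autosomal one. The X-linked TFIID genes Taf1, which encodes the largest subunit, and Taf9b had the same order as Taf7l at these steps, with 23.5 and 34.2 FPKM under PlpSC and 2.25 and 2.54 under L/ZSC. Taf4b, an autosomal germ cell form of TAF4, was also highest under PlpSC, at 44.4 FPKM, and at 4.62 under L/ZSC. The set of X-linked genes was drawn up after the values of Taf7l had been seen.

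In the deposited values, differences over the last step were small by comparison. From L/ZSC to PaSC the members ranged from -0.27 for Rfx4 to 0.67 for Sox30. At this step 9 of the 10 were within 1.5 times, beside 8403 of all 16652 expressed genes. With all libraries brought to one sum 5 members were higher at this step, and with median ratio scaling 3. These scalings moved the median of all genes by 0.30 and 0.12, and the shares of all genes called under them are not given here. Between SG and PaSC, 4 members were higher under PaSC (24.7% of all genes) and Taf7l was lower (39.9%). The 4 were Gtf2a1l at 2.27 times, Crem at 2.03 times, Tbpl1 at 1.76 times and Sox30 at 1.63 times. With median ratio scaling 7 members were higher under PaSC than under SG, and the median of all genes moved by 0.30. At a ratio over 2 the higher members were Gtf2a1l and Crem (18.4% of all genes), and Taf7l was still lower (28.5%). The label of SG is in doubt, and only 5 of 577 lncRNAs of the PaSC column matched the published column of that name. So this comparison need not describe spermatogonia or pachytene cells. Spermatid markers summed to 11.1 FPKM under SG and 12218 under PaSC, and their part in these 4 differences was not tested.

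**Figure D4:**
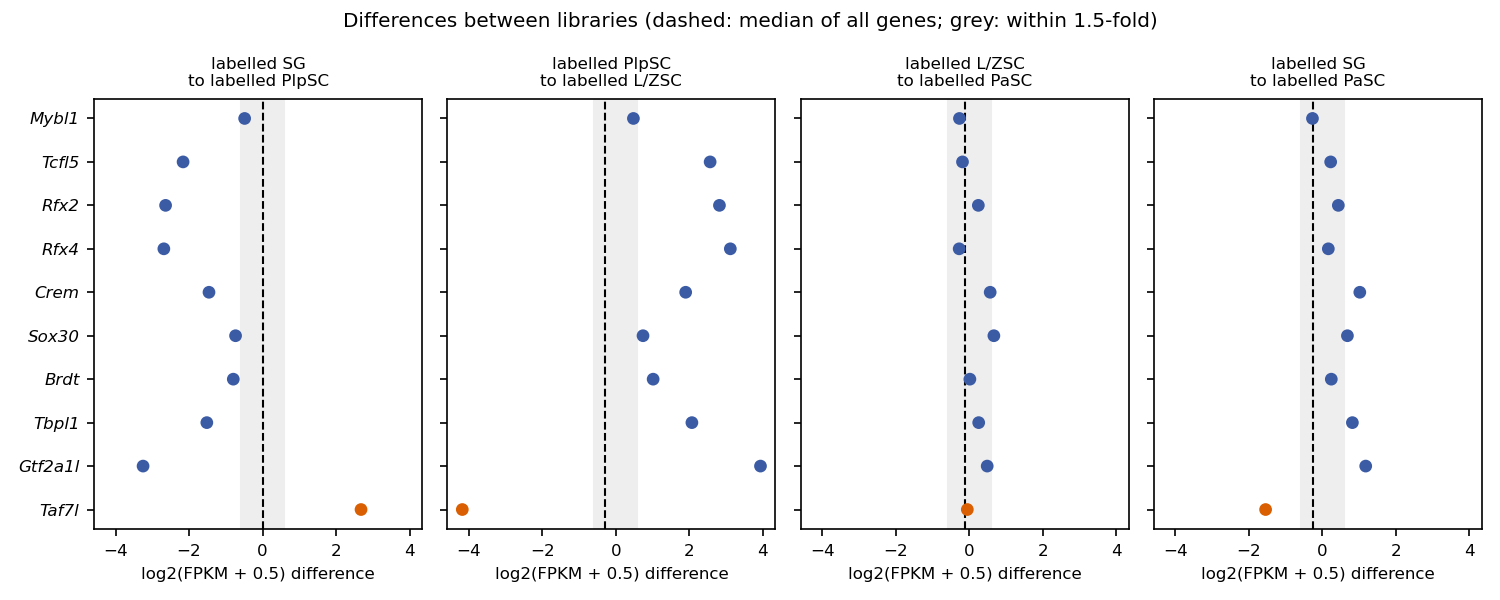
Difference of log2(FPKM + 0.5) for each regulator in 4 comparisons, 1 point per gene, Taf7l in orange, with the median of all 16652 expressed genes dashed and the range within 1.5 times in grey. At both comparisons with PlpSC all points except Mybl1 lie outside the grey range, Taf7l opposite to the others, whereas 9 of 10 lie inside it from L/ZSC to PaSC.

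Lists of genes linked to these factors were then described as groups, and the dependence of each gene on a member was not tested. Of 12 piRNA pathway genes of the A-MYB programme, 9 were lower and 1 was higher under PlpSC than under SG (30.9% and 30.1% of all genes). Under L/ZSC 10 were higher and 1 lower than under PlpSC (30.7% and 45.4%). Under PaSC 8 were lower than under L/ZSC (24.6%). Their median differences were -1.34, 1.68 and -0.67 on the log2(FPKM + 0.5) scale, beside 0, -0.29 and -0.10 for all expressed genes. Piwil1, the MIWI gene that binds pachytene piRNAs, was at 265 FPKM under SG, 32.7 under PlpSC, 299 under L/ZSC and 182 under PaSC. Mael, a germ granule gene, was at 747, 277, 1013 and 1079.7 FPKM, and Tdrd6 at 237, 16.7, 328 and 361 FPKM. Piwil1 and Tdrd6 were also used above as pachytene markers. The germ cell helicase gene Ddx4 had a milder course, from 150.4 FPKM under PlpSC to 276 under L/ZSC. The exception was Mov10l1, a helicase of piRNA biogenesis, at 101 FPKM under PlpSC and between 25.9 and 62.0 elsewhere.

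All 16 cilium and flagellum genes of the kind RFX factors act on were higher under L/ZSC than under PlpSC, by a median of 1.45, where 30.7% of all genes were higher and their median was -0.29. Under PlpSC 13 of them were lower than under SG (30.9% of all genes). Under PaSC 2 were higher and 1 lower than under L/ZSC (24.9% and 24.6% of all genes). Tekt1, a tektin of the axoneme, was at 174 FPKM under SG, 18.6 under PlpSC, 286 under L/ZSC and 401 under PaSC. Spag6l, a central pair gene also used above as a pachytene marker, was at 228, 19.4, 357 and 336 FPKM. The transport genes Ift140 and Ift172 were at 27.4 and 22.7 FPKM under PlpSC and at 284 and 175 under L/ZSC. These 4 genes had the direction of Rfx2 and Rfx4 at the first 2 steps.

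CREM-dependent spermatid genes differed far more than Crem itself from L/ZSC to PaSC. From PlpSC to L/ZSC 7 of 8 were higher (30.7% of all genes), as Crem was. All 8 were highest under PaSC (27.4% of all genes), as Crem was. Of 8 genes, 7 were higher under PaSC than under L/ZSC (24.9% of all genes), with a median of 5.84, whereas Crem differed by 0.57. Tnp1, which encodes a transition protein, was at 1.44 FPKM under SG, 2.23 under PlpSC, 29.5 under L/ZSC and 4407 under PaSC. The protamine genes Prm1 and Prm2 were at 12.7 and 9.07 FPKM under L/ZSC and at 2937 and 1914 under PaSC. Ldhc, the germ cell lactate dehydrogenase, was the member of this list that did not differ by 1.5 times at this step, and it had the order of Crem in all 4 libraries. Ldhc is a pachytene marker as well, and 6 of the others are spermatid markers, so the list and the markers are not separate measurements. The CREM coactivator gene Fhl5 (ACT) was at 0.276, 0.247, 3.68 and 139 FPKM, and Kif17, whose product moves ACT out of the nucleus, at 1.16, 1.54, 3.81 and 59.3 FPKM. Like most genes of the list, both had far higher values under PaSC than in any other library.

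Regulators of the earlier programme mostly went against the members at the first 2 steps. Of 9 such genes, 8 were matched. All 8 are spermatogonial markers as well, so this list and those markers are not separate measurements. Of the 8, 7 were higher under PlpSC than under SG (30.1% of all genes). Under L/ZSC 7 were lower than under PlpSC (45.4% of all genes). The medians were 1.12 and -2.38. Stra8, the retinoic acid target that opens meiosis, was at 18.6 FPKM under SG, 47.1 under PlpSC, 5.88 under L/ZSC and 1.96 under PaSC. Dmrt1, a factor of mitotic spermatogonia, was at 29.8, 62.5, 11.1 and 2.70 FPKM, and Sohlh2 at 7.60, 31.4, 3.14 and 2.27 FPKM. Dmrtb1 was the exception, with 219, 38.1, 356 and 461 FPKM, and so had the order of Gtf2a1l. With all libraries brought to one sum of FPKM, the first of these medians was -0.16.

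Of the 20 relatives of the members, 18 reached 0.5 FPKM. Under PlpSC 4 were higher and 5 lower than under SG, beside 30.1% and 30.9% of all genes. Under L/ZSC 4 were higher and 9 lower than under PlpSC, beside 30.7% and 45.4% of all genes. The 4 that were higher at the second step, Rfx5, Rfxank, Brd3 and Tbp, were also lower at the first, as most members were. The median of the 18 at the second step was -0.60, beside 1.99 for the 10 members, and turned to 0.54 with all libraries brought to one sum of FPKM. Rfx7, an RFX factor of many tissues, was at 7.71 FPKM under PlpSC and 2.11 under PaSC. The 8 partners and cofactors of the members were mixed. From SG to PlpSC 4 were higher and 1 lower (30.1% and 30.9% of all genes). From PlpSC to L/ZSC 3 were higher and 5 lower (30.7% and 45.4%). From L/ZSC to PaSC 4 were higher and 2 lower (24.9% and 24.6%). Their medians at these steps were 0.45, -0.78 and 0.47. The second of these was 0.12 with all libraries brought to one sum. Polr2a, the largest subunit of RNA polymerase II, was at 41.0, 37.4, 18.1 and 12.6 FPKM under SG, PlpSC, L/ZSC and PaSC.

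**Figure D5:**
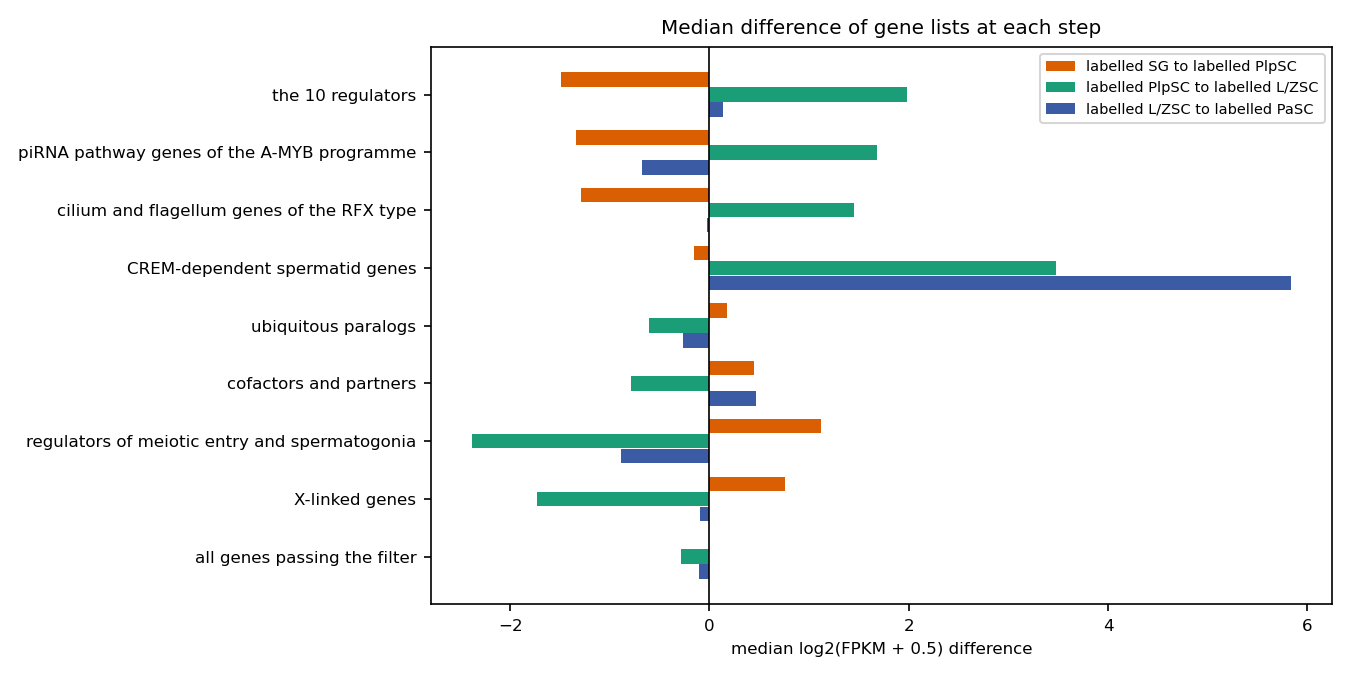
Median log2(FPKM + 0.5) difference of each gene list at the 3 steps between neighbouring labels, 1 bar per step. The regulators, the piRNA genes and the cilium genes have negative medians from SG to PlpSC and positive ones from PlpSC to L/ZSC, and the CREM-dependent genes have their largest median, 5.84, at the last step.

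The genes most like each member were found by the root mean square difference of log2(FPKM + 0.5) over the 4 libraries, each profile centred on its mean, among 11734 other genes of at least 5 FPKM in 1 library. With 4 points a profile has little detail, and likeness here is a description. The closest to Gtf2a1l were Tekt1 (0.02) and Gm15908, and the closest to Rfx2 were Usp2 (0.02) and Cfap221. Tcfl5 was closest to Cox6b2 (0.01), which encodes a testis form of a respiratory chain subunit, and Zfp35. Rfx4 was closest to Apba1 and Ankrd54, Crem to Gpat4, and Tbpl1 to Cep72 and Styxl1. The nearest to Brdt were Ccdc124 and Vdac3, to Sox30 Map2k7 and Zfp629, and to Mybl1 Arv1 and Kyat1. Taf7l had the loosest match of the members, Rhox13 (0.10), an X-linked homeobox gene of germ cells at 54.1 FPKM under PlpSC and 3.05 under L/ZSC, followed by Primpol. Among the members themselves Crem and Tbpl1 were the most alike (0.11), followed by Rfx2 and Rfx4 (0.19).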

How the data were processed

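RNA depleted of ribosomal RNA was sequenced from 4 directional libraries, 1 per stage. The authors used TopHat, with its defaults, to place reads on mm10, and Cuffdiff for the FPKM of RefSeq genes. For versions, strand setting and scaling across libraries, the sources used here give nothing. The deposited FPKM values were unfiltered, and no per-sample column was left unused. Columns were matched to samples by name.

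Calculations used numpy 2.4.6 and pandas 2.3.3 under Python 3.11.15, and figures matplotlib 3.10.9. The 16652 genes that reached 0.5 FPKM in any library were kept. Plain ratios over 1.5 were called, as in the study's methods, and a value listed at 0 was called lower than any of 0.5 FPKM or more. Differences used log2(FPKM + 0.5). With 1 library per stage no test was made, and depth is unknown. Calls and scaling were tested on simulated data.

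The members, lists and thresholds were chosen with earlier results of these data known. Genes named were the members, their listed relatives and partners, the 4 highest genes of each other list and the 2 closest profiles per member. A few genes that this rule names are not reported here. Mov10l1 and the medians of X-linked genes fall outside this rule and were added after values had been seen, as were the other TFIID subunits. Alternatives were pseudocounts of 0.1 and 1, no filter, filters at 1 and 5 FPKM, a ratio of 2 and scalings by the sum of FPKM, by that sum without the 10 highest genes and by median ratios over genes above 1 FPKM. Chromosomes came from RefSeq on GRCm38.p6 (23457 genes matched by symbol, 867 by an older one, 102 not at all), and transcripts and overlaps from GENCODE M21 on GRCm38. A planned comparison of protein sequences was not run, for want of the sequences here.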

Additional observations from a re-analysis of the deposited data

How the results depend on the processing

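The count of 9 members lowest under PlpSC was the same under each scaling tried. Counts of members called at the first 2 steps stayed within 1.5 times under every alternative. From L/ZSC to PaSC, 1 member was higher in the deposited values, 0 at a ratio of 2, 5 with scaling to the same sum of FPKM and 3 with median ratio scaling. From SG to PaSC the count of 4 became 2 at a ratio of 2 and 7 with median ratio scaling. No member was highest under SG (0) with median ratio scaling, and 0 under L/ZSC with scaling to the same sum. That scaling moved the median of all genes by -1.03, 0.84 and 0.30 at the 3 steps, and median ratio scaling by 0.12 at the last.

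Medians of lists turned sign with scaling to the same sum for the relatives (0.54) and the cofactors (0.12) from PlpSC to L/ZSC, and for the early regulators (-0.16) from SG to PlpSC. The same scaling gave -1.09 for the relatives and -0.68 for the CREM-dependent genes at the first step, 0.84 for the cofactors and -0.30 for the piRNA genes at the last step, and -0.40 for the relatives from SG to PaSC. Median ratio scaling gave -0.52 for the relatives at the second step, 0.63 for the cofactors and -0.51 for the piRNA genes at the last step, and -0.28 for the relatives and 0.65 for the cilium genes from SG to PaSC. Pseudocounts of 1 and 0.1 gave -0.55 for the relatives at the second step and 0.67 for the cofactors at the first. The PlpSC column summed to 2.57e+06 FPKM, 68.1% of it in its 10 highest genes, with Rmrp the highest at 586583. The other columns summed to between 858436 and 1.12e+06 FPKM, with 23.8% to 42.8% in their 10 highest genes. Scaling to the same sum divides by these sums, and the part of single genes in the shifts was not tested. Of 200 alternative values for single members, 14 crossed the limit of 1.5 times and none changed the sign of a called difference. No paired analysis was possible because there was 1 library per stage.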

Other observations

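Stage names stand for the columns so labelled. The list of other subunits of TFIID, 11 genes drawn up after the values of Taf7l had been seen, was mixed. From PlpSC to L/ZSC 3 were higher, 4 were lower and 4 lay within 1.5 times, beside 30.7% and 45.4% of all genes higher and lower, with a median of -0.06 on the log2(FPKM + 0.5) scale. Taf9 was the most abundant, at 567 FPKM under SG, 289 under PlpSC, 764 under L/ZSC and 725 under PaSC. Taf10 followed at 194, 113, 233 and 223 FPKM. Both had their lowest value under PlpSC, like most of the 10 regulators. Of the 11, 5 were highest there, beside 41.3% of all expressed genes. Taf13 was among these 5, at 34.1 FPKM against 10.8 under L/ZSC. Taf9b, the X-linked relative of Taf9, had its highest value where Taf9 had its lowest, as Taf7l did beside 4933416C03Rik.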
